A study of Mus musculus with 4 samples.

Results

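The chains of the integrins and laminins were followed through the cell types of mouse collecting lymphatic vessels and of their surrounding tissue. The 34 members were chosen by name, with no threshold on their values: 24 integrin chains, of which 16 are alpha and 8 are beta chains, and 10 laminin chains. They are 34 of the 32285 genes in the count matrix, and all 34 were found there by symbol. The integrin chain Itga9 was not a member and is given only beside them.

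The cells came from C57BL/6J mice of 12 to 14 weeks with no treatment or genetic change named. Library pairs were made from 4 male and from 4 female mice, each pair being a gene library and a library of the sample tags that mark the mouse. For each mouse, vessels of the hind limb (popliteal afferent), the flank (inguinal axillary), the mesentery and the neck (superficial cervical) were pooled before enzymatic dissociation, so region cannot be told apart. The series is titled for the calcium-permeable channel TRPV4 in the contraction of these vessels, and no sample here varies that channel.

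Integrins are cell surface receptors, each a pair of an alpha and a beta chain, that hold a cell to its matrix or to other cells and signal through adaptors such as talin and kindlin. Laminins are secreted trimers of an alpha, a beta and a gamma chain that polymerise into the basement membrane, the sheet beneath endothelium and epithelium and around each muscle, Schwann and fat cell. The alpha chain of a laminin largely sets which receptors bind it: laminins with the alpha 4 and alpha 5 chains are those of vessels, alpha 2 is the chain of muscle and nerve, and alpha 3 with the beta 3 chain is found in the anchoring laminin of stratified epithelium. In lymphatic vessels, thin capillaries take up fluid and collecting vessels with a muscle coat pump it.

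The deposited matrix held 24046 barcodes with 232753017 gene UMIs (unique molecular identifiers, one for each captured RNA molecule) and a median of 8684.5 UMIs. Barcodes end in a number from 1 to 8 that no label ties to a mouse or a sex, so the whole matrix was treated as 1 pooled sample, with no test between groups. The lowest, median and highest value over barcode numbers with at least 10 cells of a class describe the spread. Numbers 1 to 4 and 5 to 8 form 2 sets that share 44 barcode sequences between them, and no barcode was shared within a set. Levels are CPM, the UMIs of a gene per 1000000 gene UMIs summed over a class, and their 95% intervals cover counting error only. They compare 1 gene between cells; they are not per length and give no order between genes.

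After filters and removal of 806 doublets, 22860 cells fell into 35 clusters, 28 of them named by marker genes, and 15 classes of at least 50 cells held 20765 cells. A neutrophil-like cluster of 21 cells was not used, so levels are ranked among the other 34 clusters. The lymphatic endothelial-like class (625 cells) had Prox1 at 1057 CPM against 25.6 CPM in the blood endothelial-like class (450 cells), and Flt1 was at 45.2 and 1238 CPM in that order. The smooth muscle-like class (1436 cells) had Myh11 at 4875 CPM, and its 2 clusters are described by number because only 2 of the 6 markers of lymphatic muscle, Ano1 and Slc22a3, were at least 2-fold higher in cluster 7 than in cluster 18. The pericyte-like class (378 cells, cluster 19) was a close call: it had Rgs5 at 518 CPM but also Myh11 at 1828 CPM, and it did not form at a finer clustering or with doublets kept. At the finer clustering 283 cells led by Tnc and Colec11, leading genes of cluster 19 too, were named smooth muscle, and 124 cells led by Rgs5 were unnamed. Smooth muscle markers in the pericyte-like class stood at a median of 45.2% of their muscle level (28.1% to 91.0%). The part of muscle cells or muscle RNA in this class was not tested. Fibroblast markers in it stood at a median of 31.0% of their fibroblast-like level, against 2.46% in lymphatic endothelial-like, 7.12% in blood endothelial-like, 3.80% in smooth muscle-like, 22.8% in Schwann-like, 12.9% in T and NK-like and 16% in mast-like cells. The part of free RNA or mixed droplets in any level of a chain that fibroblasts also make was not tested, and those levels are given beside these percentages below.

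All 34 chains reached 10 CPM in at least 1 class, as did 42.0% of all genes, and 22 reached 100 CPM somewhere, as did 38.3% of the 13571 genes at 10 CPM in a class. Itgb1, Itga5 and Itgav were at 10 CPM or more in all 15 classes, as were 35.2% of those genes. Itgb6, Lama1, Lamc3 and Itgae reached it in 1 class each: Itgb6 and Lama1 in epithelial-like, Lamc3 in mesothelial-like and Itgae in dendritic-like cells. These are 4 of the 34 chains, and 13.5% of those genes likewise reached 10 CPM in 1 class only. The number of chains at 10 CPM ran from 8 in macrophage-like cells, where 58.1% of those genes reached it, to 20 in epithelial-like (68.5% of genes) and in T and NK-like cells (63.8%). Smooth muscle-like cells held the highest level of 7 chains, and epithelial-like, Schwann-like and dendritic-like cells of 4 each. Of those genes, 5.56% were highest in smooth muscle-like, 9.76% in epithelial-like, 12.8% in Schwann-like and 4.57% in dendritic-like cells. The muscle chains were Itgb1, Itga1, Itga7, Itga8, Itga10, Lama5 (135 CPM, with 121 CPM in epithelial-like cells next) and the laminin beta chain Lamb2 (314 CPM, with 180 CPM in pericyte-like cells next). Itga10 was highest in pericyte-like cells under 3 alternatives (the stricter filter, per-cell means and numbers 1 to 4), and with marker gates Itga7 was highest in pericytes and Lama5 in epithelium. The highest class for Lama4 was the lymphatic endothelial-like one, with 455 CPM. The epithelial chains were Itgb6, Lama1, Lama3 (56.8 CPM) and the laminin receptor chain Itga3 (54.1 CPM). The dendritic chains were Itga4, Itgax, Itgae (35.1 CPM) and the fibronectin receptor chain Itga5 (163 CPM, blood endothelium being next with 155 CPM). Itgal was highest in T and NK-like cells at 154 CPM.

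**Figure D1:**
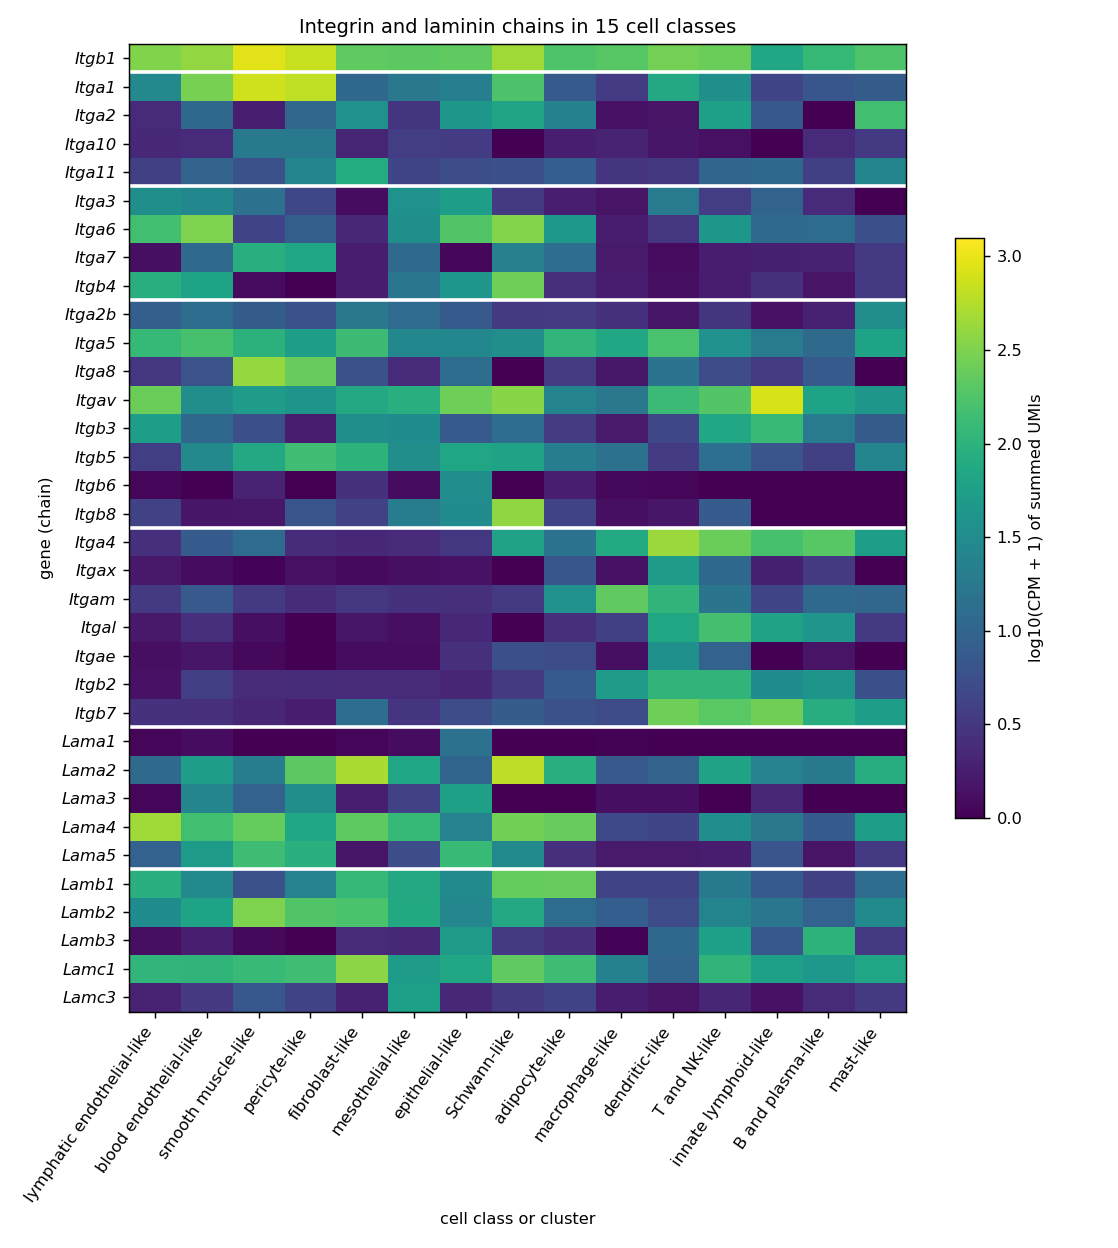
Level of each of the 34 chains (rows, grouped by role and separated by white lines: the shared beta chain, collagen-binding, laminin-binding, RGD-binding and leukocyte integrin chains, laminin alpha chains, laminin beta and gamma chains) in 15 cell classes (columns), as log10(CPM + 1) of summed UMIs, on a scale from 0 to 3.1. Itgb1 is bright in every column, the leukocyte chains are bright in the immune columns at the right, and the muscle and pericyte columns share Itga1, Itga7, Itga8 and Itga10.

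Itgb1, the beta chain that pairs with most matrix-binding alpha chains, was highest in smooth muscle-like cells at 925 CPM (95% interval 908 to 942). Over 8 barcode numbers it ran from 881 to 1031 CPM there with a median of 910 CPM. It was next highest in pericyte-like cells at 684 CPM, Schwann-like cells at 450 CPM and blood endothelial-like cells at 396 CPM, and lowest in innate lymphoid-like cells at 68.5 CPM. Among smooth muscle-like cells with at least 2000 UMIs, each thinned to 2000 UMIs, 81.2% had an Itgb1 UMI. Cells with fewer UMIs were left out of all thinned shares here and below, while unthinned shares use all cells. Fibroblast-like and macrophage-like cells had Itgb1 at 216 and 198 CPM.

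The collagen-binding chain Itga1, the alpha chain of a receptor for basement membrane collagen, followed Itgb1 in muscle. Its level was 758 CPM in muscle and 631 CPM in pericyte-like cells, then 290 CPM in blood endothelial-like and 169 CPM in Schwann-like cells. Lymphatic endothelial-like cells were far lower, with Itga1 at 28.1 CPM. Thinned to 2000 UMIs, 67.9% of smooth muscle-like cells had an Itga1 UMI against 0.536% of macrophage-like cells, and unthinned the shares were 92.5% and 1.48% at median depths of 8197.5 and 6749 UMIs. Itga8, the alpha chain of a receptor for nephronectin and fibronectin, was at 403 CPM in smooth muscle-like cells (304 to 466 CPM over 8 numbers) and 241 CPM in pericyte-like cells (146 to 368 CPM), and at no more than 14.0 CPM in any other class. The ranges of the muscle and pericyte classes overlap for Itga8. Itga10, a collagen-binding chain best known from cartilage, was low, with 17.0 CPM in muscle and 16.7 CPM in pericyte-like cells. Itga7, the laminin-binding chain of muscle, was at 85.7 and 65.0 CPM in that order, and at no more than 21.4 CPM in the other 13 classes. Smooth muscle markers stood at a median of 45.2% of their muscle level in pericyte-like cells. Their part in the pericyte-like levels of Itga1, Itga7, Itga8 and Itga10 was not tested.

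Since Itga1 and Itga8 were both highest in muscle, their promoters are shown for what they share. Itga1 lies on chromosome 13 (GRCm38, 114953096 to 115101964, minus strand) beside the gene of the other widely expressed collagen-binding chain, Itga2 (114833081 to 114932100, minus strand). The Itga1 promoter is chr13:115101915-115102214 and the Itga8 promoter is chr2:12301895-12302194, both on the minus strand of GRCm38.p6, 300 bases around the start site from RefSeq. The search was for the CArG box, the binding motif of serum response factor, which drives many genes of contractile muscle, and for GAGGAA, the core bound by the myeloid factor PU.1, on both strands.
Itga1 promoter: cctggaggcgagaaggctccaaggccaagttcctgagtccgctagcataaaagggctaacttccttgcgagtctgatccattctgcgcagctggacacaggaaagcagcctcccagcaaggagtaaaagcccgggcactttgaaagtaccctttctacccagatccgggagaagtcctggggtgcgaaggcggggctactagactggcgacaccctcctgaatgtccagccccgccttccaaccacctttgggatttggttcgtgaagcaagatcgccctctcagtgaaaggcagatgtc
Itga8 promoter: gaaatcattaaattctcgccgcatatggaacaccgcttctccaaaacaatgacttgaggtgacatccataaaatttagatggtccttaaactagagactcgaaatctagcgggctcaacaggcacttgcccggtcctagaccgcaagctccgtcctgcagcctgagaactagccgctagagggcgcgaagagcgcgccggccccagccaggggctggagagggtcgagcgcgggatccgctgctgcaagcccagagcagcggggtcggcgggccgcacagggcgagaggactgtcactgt
Neither window holds a match to either motif, so no base is in capitals. A CArG box is present in 1.63% of all 32851 promoters of the table and in those of 2 of the 22 members that have one there, Itgb6 and Lama2. GAGGAA is present in 28.3% of all promoters and in those of 14 of the 22 members. The percentages count promoters, while a member counts if any of its promoters has a match. Itga3, Itgb6 and Lamb3 each have a further promoter there, so the figures are not in the same unit.

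Within the smooth muscle-like class, the question was whether its clusters carry the same receptors and laminins. Cluster 7 (1050 cells) was led by Actg2, Cnn1 and Mylk, and cluster 18 (386 cells) by Sorbs2, Pln and Crispld2, with 5 of 6 markers of blood vascular muscle higher than in cluster 7, among them Rergl at 89.1 against 0.327 CPM. Of 16 chains at 10 CPM or more in either, 6 were at least 2-fold higher in cluster 7, where 14.5% of all genes tested were, and 4 in cluster 18, where 8.94% of genes were. Itgb1 (923 and 929 CPM), Lamb2 (313 and 318 CPM) and Lamc1 (118 and 139 CPM) did not pass 2-fold. The clusters were found without the members, but they are groups made from these cells, so the differences are descriptions.

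Itga1 in cluster 7 ran from 766 to 1069 CPM over 8 barcode numbers with a median of 885 CPM, and in cluster 18 from 251 to 392 CPM with a median of 313 CPM. The ranges do not overlap, and the summed levels of 896 and 317 CPM differ 2.83-fold (95% interval 2.64 to 3.03). Lama4, the laminin alpha chain of vessel basement membranes, ran from 241 to 329 CPM in cluster 7 and from 29.6 to 94 CPM in cluster 18, a 4.57-fold difference (3.93 to 5.35). Lama5, the other alpha chain of vessel laminin, went the other way. It ran from 72.2 to 128 CPM in cluster 7 and from 182 to 289 CPM in cluster 18, 2.33-fold higher in cluster 18 (2.11 to 2.57). The laminin-binding chain Itga7 went with Lama5: its levels of 66.6 CPM in cluster 7 and 147 CPM in cluster 18 differ 2.21-fold (1.94 to 2.50), and it was higher in cluster 18 in 8 of 8 numbers. In the muscle clusters the alpha 4 and alpha 5 laminin chains thus stood in opposite order, and each gene's ranges over barcode numbers were separate.

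Another laminin-binding chain, Itga3, was 6.58-fold higher in cluster 18 (37.2 against 5.66 CPM), and Itga4, which binds fibronectin and VCAM-1, was 2.27-fold higher there (19.5 against 8.6 CPM). Higher in cluster 7 were the fibronectin receptor chain Itga5 (115 against 41.4 CPM, 2.77-fold, in 7 of 8 numbers), Itga10 (21.0 against 4.18 CPM, 5.03-fold) and Lama2 (24.3 against 5.57 CPM, 4.36-fold). Lama3 had 102 UMIs in cluster 7 (11.1 CPM) and 0 in cluster 18, at least 10.6-fold higher when 3 UMIs stand for 0 in cluster 18. Of the partners of laminin in the basement membrane, 0 of 7 at 10 CPM were higher in cluster 7 and 5 were higher in cluster 18. Those with the largest ratios were the type IV collagen chain Col4a1 (80.3 CPM in cluster 7 and 450 CPM in cluster 18, 5.61-fold) and the proteoglycan Agrn (9.14 and 39.0 CPM, 4.26-fold). Of other integrin ligands, 4 of 9 were higher in cluster 7, led by the Itga8 ligand nephronectin, Npnt (224 against 16.7 CPM, 13.4-fold) and Vcam1 (47.1 against 3.83 CPM, 12.3-fold). A further 3 were higher in cluster 18, led by Ltbp1 (36.9 against 305 CPM, 8.27-fold) and Fn1 (51.2 against 159 CPM, 3.1-fold). Of 12 integrin adaptors tested, Parva and Bcar1 were higher in cluster 7 and Pxn in cluster 18.

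Pericyte-like cells were compared with the whole smooth muscle-like class. Of 18 chains tested, 3 were at least 2-fold higher in muscle (5.42% of all genes) and 4 in pericyte-like cells (9.35% of all genes). Muscle was higher for Lama4 (232 against 70.5 CPM, 3.29-fold, 2.84 to 3.82), Itga3 (13.2 against 3.63 CPM, 3.63-fold, 1.92 to 7.71) and Itga4 (11.2 against 1.45 CPM, 7.70-fold, 2.94 to 28.7), each in 8 of 8 numbers. With classes made by marker gates on single cells instead of clusters, 5 chains were higher in muscle, with Itga1, Itga8 and Itga10 now past 2-fold, and at a level of 20 CPM only 1 was. The gate left 105 pericyte cells, of which 62 were among the pericyte-like cells here.

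Pericyte-like cells were higher for Lama2 (205 against 19.8 CPM, 10.4-fold, 8.89 to 12.1), the fibroblast collagen receptor chain Itga11 (24.7 against 4.81 CPM, 5.14-fold), Lamb1 (22.9 against 4.81 CPM, 4.76-fold) and Lama3 (33.4 against 8.46 CPM, 3.95-fold, 2.95 to 5.29). The Lama2, Itga11 and Lamb1 levels are 40.2%, 31.1% and 19.7% of those in fibroblast-like cells, beside the 31.0% median of the fibroblast markers, and the part of fibroblast RNA in them was not tested. The 7 fibroblast markers ranged there from 1.83% to 54.5% of their fibroblast-like level. Lama2 was not past 2-fold with marker gates. Lama3 stood at 0.821 CPM in fibroblast-like cells. In pericyte-like cells it ran from 16.2 to 46.8 CPM over 8 numbers against 5.88 to 12.4 CPM in muscle. Itgb5, a beta chain that pairs with alpha v, had its highest class level in pericyte-like cells at 140 CPM and did not pass 2-fold against muscle (73.3 CPM). Of other ligands, Vcam1 (152 against 36.8 CPM, 4.13-fold) and Icam1 (295 against 61.4 CPM, 4.81-fold) led 4 of 9 that were higher in pericyte-like cells, and only Npnt was higher in muscle (174 against 66.5 CPM). Among 7 partners of laminin tested, Bcam was higher in muscle (323 against 102 CPM) and Nid1 in pericyte-like cells (145 against 56.2 CPM), and none of the 12 adaptors passed 2-fold.

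**Figure D2:**
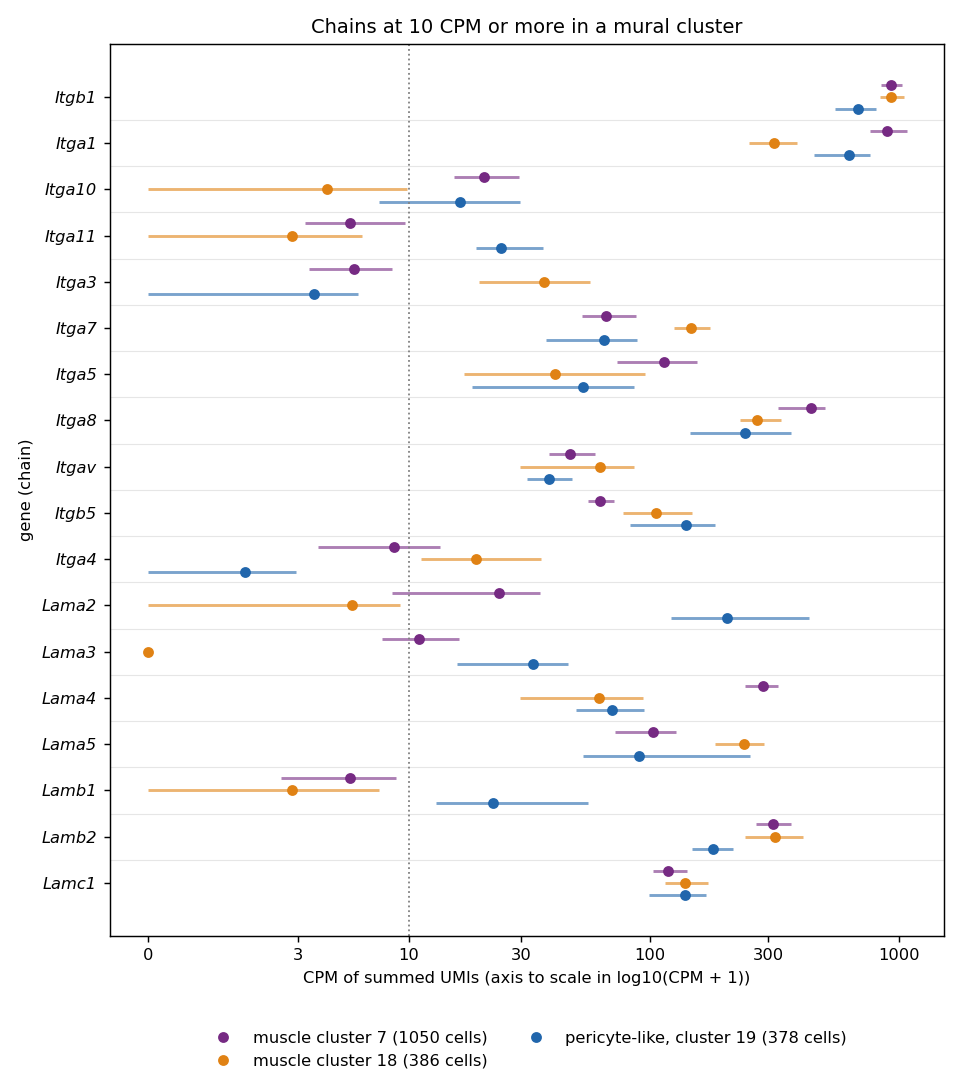
Summed level of each chain at 10 CPM or more (points) in muscle clusters 7 and 18 and in pericyte-like cells, with lines from the lowest to the highest of 8 barcode numbers; the axis is CPM, drawn to scale in log10(CPM + 1), and the dotted line marks 10 CPM. Lama4 lies higher in cluster 7 and Lama5 and Itga7 higher in cluster 18 with separate lines, while Itgb1 and Lamb2 lie together in the muscle clusters.

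Lymphatic and blood endothelium differed in alpha and beta chains of both families, while the shared beta chain Itgb1 (321 and 396 CPM) did not pass 2-fold. Of 19 chains tested, 4 were at least 2-fold higher in lymphatic endothelial-like cells, against 8.19% of all genes, and 8 in blood endothelial-like cells, against 13.1% of all genes. The lymphatic side held Itgav, Itgb3, Lama4 and Lamb1. The blood side held Itga1, Itga2, Itga6, Itga7, Itgb5, Lama2, Lama3 and Lama5. Fibroblast markers were at a median of 7.12% in blood endothelial-like cells, where Lama2 was at 10.5% of its fibroblast-like level; the part of fibroblast RNA in that Lama2 level was not tested.

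Itgav, the alpha v chain that with Itgb3 makes the receptor for vitronectin and other RGD ligands, ran from 216 to 335 CPM over 8 barcode numbers in lymphatic endothelial-like cells, with a median of 250 CPM. In blood endothelial-like cells it ran from 13.5 to 47.1 CPM with a median of 30.8 CPM. The ranges are far apart, and the summed levels of 252 and 32.6 CPM differ 7.74-fold (6.42 to 9.40). An Itgav UMI was found in 38.1% of lymphatic and 4.81% of blood endothelial-like cells thinned to 2000 UMIs (72.6% and 16.9% unthinned, at medians of 8198 and 5909.5 UMIs), beside 3.00% of thinned macrophage-like cells (7.67% unthinned). Itgb3 went the same way, at 53.9 CPM (28.6 to 72.2 CPM) against 9.74 CPM (0 to 20.5 CPM), 5.53-fold (3.92 to 8.03). The alternative partner of alpha v, Itgb5, went the other way, at 2.81 CPM in lymphatic and 27.8 CPM in blood endothelial-like cells, 9.90-fold higher in blood (6.38 to 15.9).

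Itga1, the basement membrane collagen receptor chain, was on the blood side. It ran from 184 to 396 CPM over the 8 numbers there and from 12.1 to 44.8 CPM in lymphatic endothelial-like cells, a 10.3-fold difference (8.98 to 11.8). Itga6, the laminin receptor chain of endothelium, was 2.21-fold higher in blood (2.04 to 2.39), at 219 to 422 CPM against 108 to 187 CPM. Its other partner besides Itgb1, Itgb4, did not follow it: Itgb4 was at 87.1 CPM in lymphatic and 61.0 CPM in blood endothelial-like cells, short of 2-fold. The fibronectin receptor chain Itga5 (119 and 155 CPM) and Itga3 (34.1 and 26.7 CPM) did not pass 2-fold either. Itga2 (1.41 against 10.0 CPM, 7.13-fold, 3.69 to 14.6) and Itga7 (0.324 against 10.6 CPM, 32.6-fold, 10.3 to 165) were barely above 10 CPM in blood endothelium, the latter from 3 lymphatic UMIs. Smooth muscle markers stood at a median of 1.46% of their muscle level in blood and 0.153% in lymphatic endothelial-like cells, and their part in the Itga7 and Itga1 levels was not tested.

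The vessel laminin alpha chains divided the endothelia. Lama4 was 3.15-fold higher in lymphatic endothelial-like cells (2.87 to 3.45), at 400 to 527 CPM over 8 numbers against 81.9 to 195 CPM in blood. Lama5 was 5.68-fold higher in blood endothelial-like cells (4.32 to 7.52), at 26.9 to 69.3 CPM against 3.36 to 16.5 CPM. Neither pair of ranges overlaps, so Lama4 and Lama5 stood in opposite order between the endothelia as they did between the muscle clusters. Lama3 had 89 UMIs in blood endothelial-like cells (24.8 CPM, 14.8 to 39.2 CPM) and 1 UMI in lymphatic endothelial-like cells, a ratio of 229 with a counting interval of 40.1 to 9150.0. Among the beta and gamma chains, Lamb1 was 3.25-fold higher in lymphatic cells (92.4 against 28.4 CPM, 2.65 to 4.03), Lamb2 was at 31.5 and 62.4 CPM, and Lamc1 was at 109 and 104 CPM.

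Of the partners in the basement membrane, 0 of 8 were 2-fold higher in lymphatic and 2 in blood endothelial-like cells, Col4a2 (85.7 against 427 CPM, 4.99-fold) and Col4a1 (117 against 498 CPM, 4.24-fold). Of 13 adaptors tested, Zyx was higher in lymphatic (201 against 94.4 CPM, 2.13-fold) and Lims2 in blood cells (4.00 against 209 CPM, 52.3-fold). Itga9, the valve receptor chain outside the set, was at 293 CPM in lymphatic and 67.9 CPM in blood endothelial-like cells. Of other ligands, Ltbp1 was higher in lymphatic cells (195 against 72.7 CPM), and 3 of 10 were higher in blood, led by Vcam1 (136 against 843 CPM, 6.20-fold) and Icam1 (322 against 1872 CPM, 5.82-fold).

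**Figure D3:**
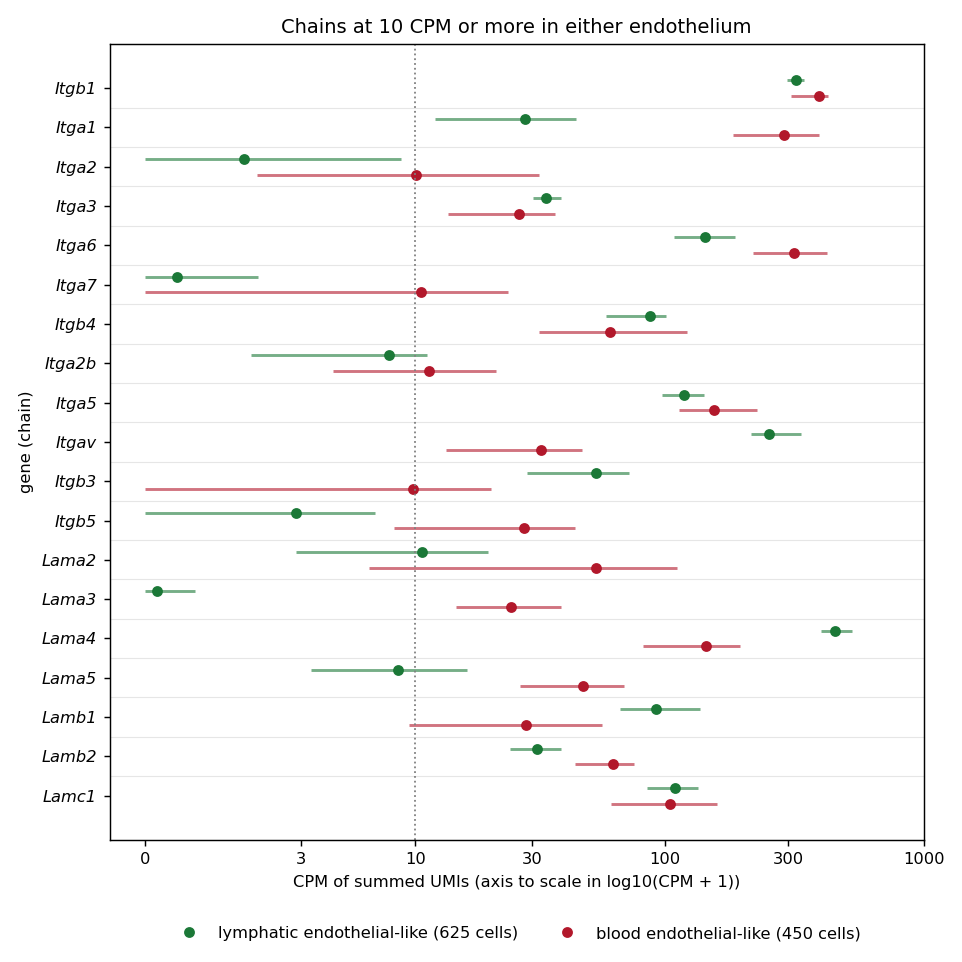
Summed level of the 19 chains at 10 CPM or more in either endothelium (points) with lines from the lowest to the highest of 8 barcode numbers; the axis is CPM, drawn to scale in log10(CPM + 1), and the dotted line marks 10 CPM. Itgav, Itgb3, Lama4 and Lamb1 lie higher in lymphatic cells and Itga1, Itga6, Lama3 and Lama5 higher in blood cells, with separate lines, while Itgb1, Itga5 and Lamc1 lie together.

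The lymphatic endothelial-like class held 2 clusters. Cluster 13 (552 cells) was led by Nts, Prox1 and Foxp2, and cluster 29 (73 cells) by the capillary markers Ccl21a, Reln and Lyve1, with Lyve1 at 10.4 and 3891 CPM in that order. Of 14 chains tested, 2 were 2-fold higher in cluster 13 (6.96% of all genes) and 5 in cluster 29 (8.6% of all genes). Only 2 barcode numbers held at least 10 cells of cluster 29. Cluster 29 was higher for Itga1 (117 against 16.7 CPM, 6.99-fold, 5.44 to 8.98), Itgb8 (10.5 against 2.07 CPM, 5.04-fold), Lama2 (20 against 9.52 CPM, 2.10-fold), Lamc1 (203 against 97.4 CPM, 2.09-fold, 1.79 to 2.43) and Itgav (455 against 226 CPM, 2.02-fold, 1.82 to 2.23). Cluster 13 was higher for the laminin-binding chains Itgb4 (94.2 against 31.4 CPM, 3.00-fold, 2.12 to 4.40) and Itga3 (36.7 against 13.3 CPM, 2.76-fold, 1.62 to 5.11). Lama4 levels of 434 CPM (cluster 13) and 613 CPM (cluster 29) were each above the 144 CPM of blood endothelial-like cells. Cluster 29 was the highest of 34 clusters for Lama4, and the next was fibroblast cluster 8 at 452 CPM, above cluster 13. Among partners of laminin, Bcam was higher in cluster 13 (90.5 against 13.3 CPM) and 2 of 8 were higher in cluster 29, Nid2 (59.9 against 14.3 CPM) and Col4a1 (309 against 92.9 CPM). Of 12 adaptors Vcl was higher in cluster 29 (585 against 112 CPM). Of 11 other ligands, 2 were higher in cluster 13, Npnt (14.3 CPM against 1 UMI) and Ltbp1 (210 against 80.8 CPM), and 3 in cluster 29, led by Tnc (96 against 6.35 CPM) and Spp1 (36.1 against 3.42 CPM). The cluster with capillary markers thus had more Itga1 and Itgav and less Itgb4 than cluster 13.

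Fibroblast-like cells (8596 cells in 7 clusters) were the highest class for the collagen-binding chain Itga11 and for the laminin gamma chain Lamc1. Against macrophage-like cells, a class without a basement membrane of its own, 13 of 18 chains tested were 2-fold higher in fibroblast-like cells (22.8% of all genes) and 3 in macrophage-like cells (23.7% of all genes). The 5 laminin chains in that count were Lama2 (511 against 6.33 CPM, 80.8-fold), Lama4 (216 against 3.89 CPM, 55.6-fold), Lamb1 (116 against 3.27 CPM, 35.5-fold), Lamb2 (165 against 7.43 CPM, 22.2-fold) and Lamc1 (361 against 21.8 CPM, 16.6-fold). The macrophage-like levels of Lama2 and Lama4 were 1.24% and 1.80% of the fibroblast level, beside a median of 1.80% for the fibroblast markers. These fibroblasts thus carried the chains of the alpha 2 and alpha 4 laminins, with Lama5 at 0.513 CPM and Lama3 at 0.821 CPM.

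The integrin chains in the fibroblast count were Itga2 (36.0 against 0.433 CPM, 83.2-fold), Itgb3 (34.4 against 0.676 CPM, 50.9-fold), Itga11 (79.4 against 1.97 CPM, 40.2-fold), Itga2b (16.4 against 1.73 CPM, 9.49-fold), Itgb5 (101 against 13.2 CPM, 7.6-fold), Itgav (73.7 against 15.8 CPM, 4.67-fold), Itga1 (10.3 against 2.46 CPM, 4.18-fold) and Itgb7 (12.3 against 4.33 CPM, 2.85-fold, in 7 of 8 numbers). The Itgb7 level rested on cluster 3, which held 844 of the 1201 Itgb7 UMIs of the class, and was 4.65 to 6.44 CPM in numbers 1 to 4, under the 10 CPM of the call. Itga2b is the platelet fibrinogen receptor chain, while the platelet markers Ppbp, Gp9, Gp1bb and Gp6 stood at no more than 0.349 CPM in fibroblast-like cells. Itga2b was 28.5 CPM in fibroblast cluster 2 (14.6 to 42.6 CPM over 8 numbers). Macrophage-like cells were higher for Itgam (217 against 2.14 CPM, 102-fold), Itga4 (78.0 against 1.29 CPM, 60.3-fold) and Itgb2 (50.1 against 1.33 CPM, 37.5-fold). Of 14 adaptors, 5 were higher in fibroblast-like cells, led by Fermt2 (227 against 3.00 CPM, 75.7-fold) and Parva (112 against 1.84 CPM, 61.1-fold). Parvb (0.791 against 84.0 CPM, 106-fold) and the blood cell kindlin Fermt3 (3.18 against 178 CPM, 56.0-fold) were higher in macrophage-like cells. Of partners of laminin, 5 of 6 were higher in fibroblast-like cells, led by Nid1 (681 against 9.19 CPM) and Col4a1 (403 against 10.9 CPM), and 5 of 8 other ligands were, led by Ltbp1 (273 against 3.70 CPM) and Fn1 (2606 against 50.5 CPM), with only Tgfb1 higher in macrophage-like cells (18.9 against 459 CPM).

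The fibroblast clusters differed among themselves in these chains. Itga11 was at 148 CPM in cluster 6 (led by Nav3 and Postn) and 144 CPM in cluster 8 (Col8a1 and Fbn1), and at 10.0 CPM in cluster 4 (Mmp3 and Gdf10). Lamc1 ran from 118 CPM in cluster 4 to 587 CPM in cluster 3 (Il1r2, Edn1 and Pi16). Lama2 ran from 337 CPM in cluster 4 to 708 CPM in cluster 5 (Tcf21 and Cyp1b1). Itgb5 was highest of all clusters in cluster 14 (Angptl7 and Fmod) at 172 CPM, Itga5 in cluster 8 at 245 CPM, and Itga2 was at 107 CPM in cluster 6, with a range from 1.95 to 176 CPM over 8 barcode numbers. Cluster 4 was thus the fibroblast cluster with low Itga11 and Lamc1. Cluster 3 came almost only from 1 set of barcode numbers, with 0.603% of its cells from numbers 1 to 4, and 84.8% of cluster 6 came from numbers 1 to 4, so cluster and set cannot be told apart for them.

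Epithelial-like cells (339 cells, all from barcode numbers 1 to 4) were compared with mesothelial-like cells (995 cells), which line the body cavities. Of 25 chains tested, 11 were 2-fold higher in epithelial-like cells, against 22% of all genes, and 7 in mesothelial-like cells, against 16% of all genes. Higher in epithelial-like cells were the laminin chains Lamb3 (48.5 against 1.18 CPM, 40.9-fold), Lama5 (121 against 4.47 CPM, 27.1-fold), Lama3 (56.8 against 2.96 CPM, 19.2-fold) and Lama1 (13.8 against 0.263 CPM, 52.5-fold). Among receptors, the epithelial chain Itgb6 was at 32.3 CPM (20.1 to 44.7 CPM over 4 numbers) against 0.263 CPM, 123-fold (47.4 to 455). The others were Itga2 (43.1 against 2.04 CPM, 21.2-fold), Itga8 (11.6 against 1.38 CPM, 8.43-fold), Itga6 (182 against 33.5 CPM, 5.44-fold), Itgav (263 against 90.4 CPM, 2.91-fold), Itgb4 (41.0 against 15.3 CPM, 2.67-fold) and Itgb5 (67.7 against 32.9 CPM, 2.06-fold). All 11 were higher in epithelial-like cells in 4 of 4 barcode numbers.

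Mesothelial-like cells carried another set of laminin chains. Lamc3, a gamma chain with few known sites, was at 55.7 CPM (41.2 to 70.1 CPM over 8 numbers) against 1.29 CPM in epithelial-like cells, 43.0-fold (22.6 to 94.5), and its next highest class was smooth muscle-like at 5.89 CPM. Lama2 (65.5 against 8.91 CPM, 7.35-fold), Lama4 (118 against 22.4 CPM, 5.25-fold), Lamb2 (74.5 against 26.6 CPM, 2.80-fold) and Lamb1 (72.8 against 29 CPM, 2.51-fold) were also higher there. Fibroblast markers stood at a median of 13.3% in mesothelial-like cells, where Lama2 was at 12.8% of its fibroblast-like level and Lamb1 at 62.6%; the part of fibroblast RNA in them was not tested. The receptors higher in mesothelial-like cells were Itgb3 (31.3 against 6.47 CPM, 4.84-fold) and Itga7 (10.5 CPM against 1 UMI, a ratio of 73.2 with an interval of 12.9 to 2908). Among 14 adaptors, 3 were higher on each side, led by Fermt1 (58.5 against 0.0658 CPM, the latter 1 UMI) and Vcl (354 against 74.5 CPM) in epithelial-like and by Parvb (26 against 0.863 CPM) and Lims2 (49.3 against 6.90 CPM) in mesothelial-like cells. Of 8 partners of laminin, Col4a2 and Col4a1 were higher in epithelial-like cells (84.3 against 31.8 CPM and 102 against 48.2 CPM), and 3 in mesothelial-like cells, led by Nid2 (124 against 3.02 CPM) and Nid1 (86.1 against 19 CPM). Of 10 other ligands, 5 were higher in epithelial-like cells, led by Cdh1 (446 against 0.921 CPM) and Tnc (29.5 against 1.32 CPM), and 3 in mesothelial-like cells, led by Emilin1 (25.6 against 1.01 CPM) and Icam1 (373 against 145 CPM).

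The epithelial-like chains lay mainly in 1 of its 2 clusters. Cluster 23 (183 cells) was led by the basal keratins Krt17, Krt14, Krt15 and Krt5, and cluster 24 (156 cells) by Wfdc2, Prlr and Krt18. Of 22 chains tested, 14 were 2-fold higher in cluster 23 (16.8% of all genes) and 0 in cluster 24 (12.7% of all genes). Lama1 had 96 UMIs in cluster 23 (42.0 CPM) and 0 in cluster 24, at least 65.3-fold higher with 3 UMIs in place of 0. Lamb3 was at 131 CPM (88.7 to 184 CPM over 4 numbers) against 8.14 CPM (5.37 to 11 CPM), 16.1-fold. Lama3 was at 146 CPM (88.7 to 236 CPM) against 12.9 CPM (1.25 to 21.8 CPM), 11.4-fold. Neither pair of ranges overlaps, so the anchoring laminin chains were in the cells with basal keratins.

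Lamb1 (81.8 against 3.21 CPM, 25.4-fold), Lamc1 (157 against 29.8 CPM, 5.29-fold) and Lama4 (43.3 against 12.2 CPM, 3.55-fold, in 3 of 4 numbers) were also higher in cluster 23. The laminin-binding chains Itga3 (110 against 26.6 CPM, 4.15-fold), Itga6 (319 against 116 CPM, 2.76-fold) and Itgb4 (71.3 against 26.1 CPM, 2.73-fold) went with them. Further receptors higher in cluster 23 were Itga1 (50.7 against 6.43 CPM, 7.89-fold), Itga8 (20.6 against 7.28 CPM, 2.82-fold), Itgb3 (11.4 against 4.07 CPM, 2.79-fold), Itgb8 (53.3 against 19.3 CPM, 2.77-fold) and Itga5 (44.6 against 18.2 CPM, 2.45-fold). Itgb6 (21.9 and 37.5 CPM), Lama5 (103 and 130 CPM), Itgav (215 and 286 CPM) and Itga2 (39.8 and 44.8 CPM) did not pass 2-fold, each being lower in cluster 23. All 7 of 7 partners of laminin tested were higher in cluster 23, led by Col4a2 (242 against 7.07 CPM, 34.2-fold) and Col4a1 (290 against 9.64 CPM, 30.1-fold). So were 6 of 13 adaptors, led by Lims2 (14.9 against 3.00 CPM) and Ilk (130 against 31.3 CPM), and 5 of 9 other ligands, led by Vcam1 (62.5 against 2.57 CPM) and Tnc (71.7 against 8.78 CPM), with 0 of either list higher in cluster 24. Itga9, outside the set, was also higher in cluster 23 (59.9 against 2.57 CPM). Smooth muscle markers stood at a median of 23.3% of their muscle level in cluster 23 and 0.431% in cluster 24, and their part in the Itga1 and Itga8 levels was not tested.

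Cluster 26 (137 cells), led by Sfrp5, Tenm2, Itgb4, Hcn4 and Cldn1, met no set of class markers and was not named, and it held the highest level of Itga6 and Itgb4 among 34 clusters. Itga6 was at 1149 CPM, from 928 to 1661 CPM over 7 barcode numbers, and the next cluster, Schwann cluster 32, was at 502 CPM. Itgb4 was at 1189 CPM, from 986 to 1507 CPM, and cluster 32 was again next at 282 CPM. Itga6 and Itgb4 together form the receptor that binds laminin in hemidesmosomes of epithelium and in the outer sheath of nerve fibres. Cluster 26 had Lama4 at 415 CPM, Lamb2 at 413 CPM (the highest cluster level, level with the 412 CPM of cluster 31), Lamc1 at 240 CPM and Lama2 at 145 CPM, with 0 UMIs of Lama1, Lama3 and Lamb3. Itga1 was at 335 CPM and Itga7 at 92.4 CPM there. Its epithelial markers were at no more than 5.38 CPM, Sox10 was at 0, while Dcn was at 8082 CPM and fibroblast markers had a median of 14.3% of the fibroblast level. The Itga6 and Itgb4 levels of fibroblast-like cells were 1.19 and 0.780 CPM.

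**Figure D4:**
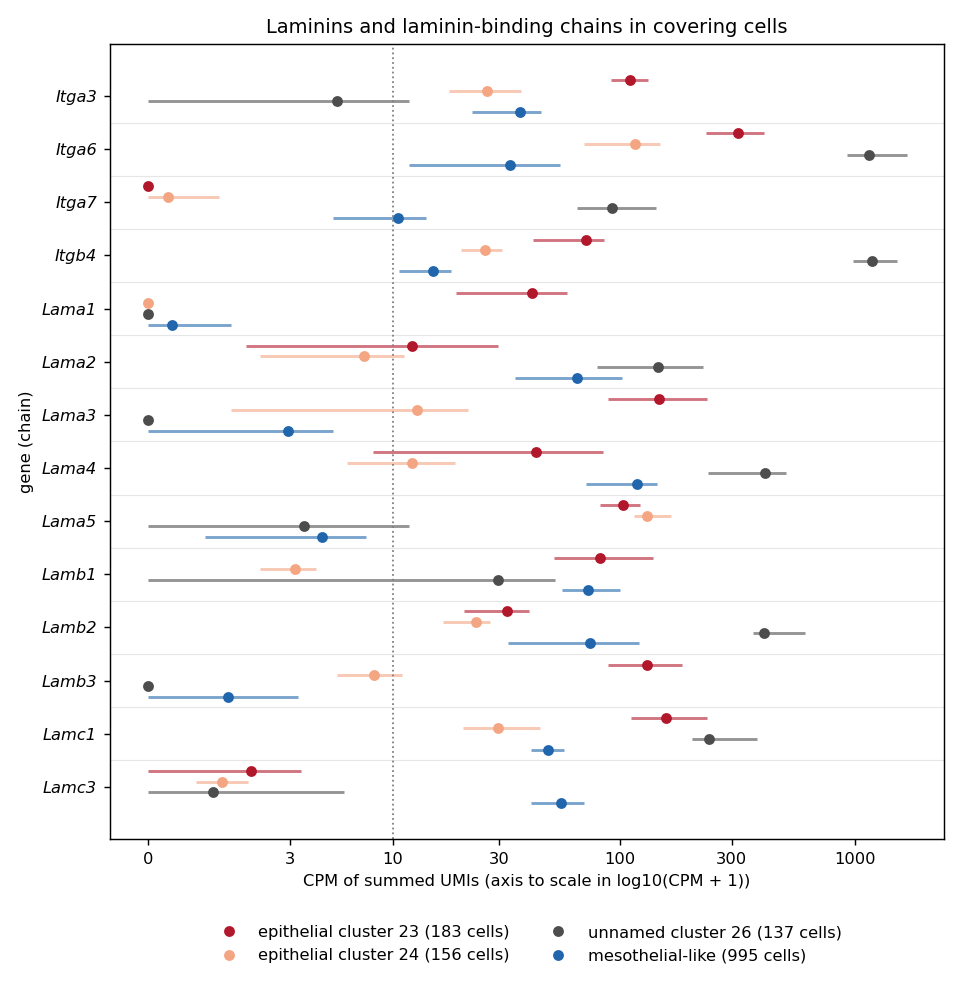
Summed level of the laminin-binding integrin chains and the laminin chains (points) in epithelial clusters 23 and 24, unnamed cluster 26 and mesothelial-like cells, with lines from the lowest to the highest barcode number holding at least 10 cells; the axis is CPM, drawn to scale in log10(CPM + 1), and the dotted line marks 10 CPM. Lama1, Lama3 and Lamb3 lie highest in cluster 23, Itga6 and Itgb4 in cluster 26, and Lamc3 in mesothelial-like cells.

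Schwann-like cells (104 cells, median 3311 UMIs) ensheathe axons and were the highest class for Itga6, Itgb4, Itgb8 and Lama2. Itgb8, the alpha v partner that binds latent TGF-beta, was at 386 CPM (329 to 450), from 164 to 712 CPM over the 5 barcode numbers with at least 10 cells. Its next classes were epithelial-like at 30.5 CPM and mesothelial-like at 19.1 CPM, and fibroblast-like cells had 3.04 CPM. Itga6 was at 336 CPM (283 to 396) beside 315 CPM (297 to 333) in blood endothelial-like cells, and these intervals overlap; with per-cell means blood endothelial-like cells were highest. Itgb4 was at 260 CPM (213 to 313) and Itgav at 353 CPM. Lama2 was at 613 CPM (540 to 692) beside 511 CPM (507 to 516) in fibroblast-like cells. Fibroblast markers stood at a median of 22.8% in Schwann-like cells, Lama2 at 120% of the fibroblast level, and Lamb1 (231 CPM) at 199%.

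The Schwann-like class joined 2 small clusters, and no barcode number held 10 cells of both. Cluster 30 (55 cells) was led by Cadm2 and Cdh19, and cluster 32 (49 cells) by the myelin genes Ncmap, Mbp and Mal. Of 18 chains tested, 4 were 2-fold higher in cluster 30 (17.3% of all genes) and 4 in cluster 32 (20.2% of all genes). Itga1 was at 285 CPM in cluster 30 (69 UMIs) and 11.3 CPM in cluster 32 (2 UMIs), a ratio of 25.2 (6.73 to 213). Itga4 had 25 UMIs in cluster 30 (103 CPM) and 0 in cluster 32, at least 6.10-fold higher with 3 UMIs in place of 0. Itga2 (107 against 5.64 CPM, 19-fold, 3.12 to 780) was also higher in cluster 30, as was Itga5 (49.5 against 11.3 CPM, 4.39-fold), whose interval of 0.977 to 40.4 includes no difference. Cluster 32 was higher for Itga6 (502 against 215 CPM, 2.34-fold, 1.64 to 3.36) and Lamb1 (355 against 140 CPM, 2.53-fold, 1.64 to 3.97). Itga7 (39.5 against 8.25 CPM) and Itgb5 (84.6 against 41.3 CPM) were higher there by intervals of 0.911 to 47.2 and 0.862 to 5.10, which include no difference. Of partners of laminin, 5 of 8 were higher in cluster 30, led by Agrn (107 against 16.9 CPM) and Nid2 (227 against 62.1 CPM), and Bcam in cluster 32 (9 UMIs against 1). Fibroblast markers stood at a median of 30.2% of their fibroblast-like level in cluster 30 and 7.98% in cluster 32. The part of fibroblast RNA in the cluster 30 levels of these partners and of Itga2 was not tested. Of 13 adaptors, 3 were higher in cluster 30, led by Vcl (141 against 31 UMIs) and Ptk2 (75 against 18 UMIs). Of 10 other ligands, 3 were higher on each side, led by Ltbp1 (34 UMIs against 1) and Vcam1 (9 against 0) in cluster 30 and by Cdh1 (20 against 0) and Thbs1 (7 against 0) in cluster 32. The myelin cluster thus had more Itga6 and Lamb1, and the other had more Itga1.

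Adipocyte-like cells (102 cells) had the highest class level of Lamb1, at 237 CPM (211 to 266), beside 231 CPM in Schwann-like cells, with intervals that overlap. With per-cell means Lamb1 was at 118 CPM in adipocyte-like cells and highest in Schwann-like cells at 249.7 CPM, which were also highest in numbers 5 to 8. Adipocyte-like Lama4 was at 236 CPM and Lamc1 at 136 CPM. With Lamb1 these are the chains of an alpha 4 laminin, and whether the fat cells of the class carry them was not tested. The marker gate for adipocytes on single cells held 28 cells, 24 of them among these 102. Leading genes of the class were Car3, Cfd and Adipoq but also Cyp2g1 and Elovl4. The latter were among the leading genes of an epithelial-like cluster under the stricter filter. Whether other cells are mixed into the class was not tested. Fibroblast markers stood at a median of 10.3% and macrophage markers at 12.3% in adipocyte-like cells. The 7 epithelial markers stood at a median of 0.229% of the epithelial-like level there, the highest at 18.2%. Lama4 was at 109% and Lamb1 at 204% of the fibroblast-like level, while Itgam was at 36.3 CPM against 217 CPM in macrophage-like cells; the part of macrophage RNA in that Itgam level was not tested.

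The leukocyte integrin chains differed between the immune classes. Itgb2, the beta chain of the leukocyte receptors for ICAM-1 and complement, was at 106 CPM in T and NK-like, 104 CPM in dendritic-like and 50.1 CPM in macrophage-like cells, and at 4.78 CPM in mast-like cells. Among single clusters Itgb2 was highest in cluster 11, which was not named and is in no class, at 127 CPM (118 to 136). Itgb7, the beta chain of gut-homing and epithelium-binding receptors, was at 267 CPM in innate lymphoid-like (176 to 302 CPM over 8 numbers), 257 CPM in dendritic-like and 204 CPM in T and NK-like cells, but at 4.33 CPM in macrophage-like cells. Itga4, which pairs with Itgb1 or Itgb7, was at 430 CPM in dendritic-like, 251 CPM in T and NK-like, 199 CPM in B and plasma-like and 156 CPM in innate lymphoid-like cells. Its macrophage-like level was 78.0 CPM. Dendritic-like cells thus had both Itga4 and Itgb7 high, while macrophage-like cells had little Itgb7.

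Itgam and Itgax, which encode the alpha chains CD11b and CD11c, are neighbours on chromosome 7 (GRCm38 plus strand, 128062640 to 128118491 and 128129547 to 128150657), with Itgal (127296260 to 127335138) on the same strand. Among classes Itgam was highest in macrophage-like cells, with 217 CPM, followed by 106 CPM in dendritic-like cells. Itgax was at 51.3 CPM in dendritic-like cells and 0.405 CPM in macrophage-like cells, so these neighbouring genes had different highest classes. Among single clusters both genes were highest in cluster 11, which was not named and is in no class. The RefSeq promoters of both (GRCm38.p6, plus strand, chr7:128062390-128062689 and chr7:128129300-128129599) are shown for the contrast between classes. Matches to GAGGAA, or its reverse complement, are in capitals.
Itgam promoter: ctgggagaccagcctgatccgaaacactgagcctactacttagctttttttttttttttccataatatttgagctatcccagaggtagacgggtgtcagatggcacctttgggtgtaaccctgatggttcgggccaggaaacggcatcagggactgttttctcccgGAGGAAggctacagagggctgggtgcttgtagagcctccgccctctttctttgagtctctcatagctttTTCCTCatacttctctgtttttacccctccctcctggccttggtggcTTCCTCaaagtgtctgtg
Itgax promoter: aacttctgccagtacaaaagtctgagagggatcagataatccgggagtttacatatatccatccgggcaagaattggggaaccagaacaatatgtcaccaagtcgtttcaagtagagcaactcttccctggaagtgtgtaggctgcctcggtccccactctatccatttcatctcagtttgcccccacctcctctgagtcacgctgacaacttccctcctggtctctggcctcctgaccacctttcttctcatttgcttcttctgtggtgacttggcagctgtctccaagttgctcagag
The Itgam window holds 3 matches and the Itgax window 0. Matches in a window describe letters only, and GAGGAA stands in 28.3% of all promoters.

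Among unnamed immune clusters, cluster 11 (662 cells, led by Lyz1, Dcstamp and Ear2) had the highest Itgam, Itgax and Itgb2 of 34 clusters, at 339, 72.6 and 127 CPM. Cluster 10 (917 cells, led by Ccl4, Ccl3, Clec4e and Ccr2) had Itgam at 193 CPM and Itgax at 17.6 CPM, the latter with a range from 1.57 to 86.7 CPM over 8 barcode numbers. Of 11 chains tested between them, Itgax was higher in cluster 11 (4.12-fold, 3.33 to 5.12, in 7 of 8 numbers; 5.38% of all genes), and Itgb5 (59.5 against 4.87 CPM, 12.2-fold) and Itgal (24.4 against 8.01 CPM, 3.05-fold) were higher in cluster 10 (10.7% of all genes). Itga9, outside the set, was higher in cluster 10 (115 against 4.40 CPM). Of 9 adaptors, Zyx and Vcl were higher in cluster 11 and Ptk2 in cluster 10, of 4 partners of laminin Bcam was higher in cluster 11, and of 6 other ligands Fn1 was higher in cluster 11 (2546 against 393 CPM) and 3 in cluster 10, led by Spp1 (30.9 against 2.67 CPM) and Vcam1 (192 against 16.8 CPM). Macrophage markers stood at a median of 74.4% of the macrophage-like level in cluster 10 and 21.1% in cluster 11.

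The 2 dendritic-like clusters had distinct alpha chains. Cluster 12 (606 cells) was led by Il1b, Ccl22, Ccl17 and Cd209a, and cluster 20 (325 cells) by Cadm1, Irf8 and Clec9a. Of 16 chains tested, 2 were 2-fold higher in cluster 12 (10.6% of all genes) and 6 in cluster 20 (11.4% of all genes). Itgam ran from 131 to 283 CPM over 8 numbers in cluster 12 and from 3.16 to 16.2 CPM in cluster 20, 24.7-fold higher in cluster 12 (17.1 to 37.0). Itgae, the alpha chain CD103 that pairs with Itgb7 to bind E-cadherin, had 315 UMIs in cluster 20 (80.1 CPM, 27.1 to 185 CPM over 8 numbers) and 1 UMI in cluster 12, a ratio of 407 (72.4 to 16109). Itgam and Itgae thus marked opposite clusters.

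Cluster 20 also had more Itga1 (150 against 12.6 CPM, 11.9-fold, 117 to 184 CPM against 3.65 to 28.3 CPM over 8 numbers), Itga3 (40.2 CPM against 2 UMIs, a ratio of 102 with an interval of 27.8 to 849), Itga8 (29.7 against 1.77 CPM, 16.8-fold), Itgal (113 against 36.0 CPM, 3.13-fold) and Lamb3 (16.3 against 5.32 CPM, 3.06-fold, in 7 of 8 numbers). Itga5 was higher in cluster 12 (226 against 82.9 CPM, 2.72-fold). Itgax (58.7 and 41.7 CPM), Itga4 (405 and 461 CPM), Itgb2 (96.9 and 114 CPM) and Itgb7 (212 and 315 CPM) did not pass 2-fold between clusters 12 and 20. Of other ligands, 2 of 4 were higher in cluster 12, Icam1 (816 against 224 CPM), which binds the Itgal and Itgam receptors, and Fn1 (95.9 against 35.6 CPM), while Spp1 was higher in cluster 20 (31.5 against 3.74 CPM). Of 4 partners of laminin Col4a2 was higher in cluster 12 (24.2 against 9.4 CPM), and 0 of 9 adaptors passed 2-fold. Smooth muscle markers stood at a median of 0.133% of their muscle level in cluster 20, where Itga1 and Itga8, chains of muscle, were above their level in cluster 12.

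The lymphocyte-like cells were told apart by chains of several families. Innate lymphoid-like cells (387 cells, led by Il5 and Il1rl1) had the highest Itgav of all classes at 824 CPM (787 to 862), from 624 to 1220 CPM over 8 numbers, with 67.9% of cells positive after thinning to 2000 UMIs. They also had the highest Itgb3, at 126 CPM (96.0 to 163 CPM over 8 numbers). Lymphatic endothelial-like cells had Itgav and Itgb3 at 252 and 53.9 CPM, and T and NK-like cells at 185 and 68.7 CPM. Itgb1 was lowest in these innate lymphoid-like cells. NK-like cells (94 cells) had Itga2, the collagen receptor chain known on NK cells as CD49b, at 253 CPM (209 to 304; 110 to 579 CPM over 6 numbers), while T-like cells (354 cells) had it at 16 CPM (11.1 to 22.2). Itgal, the LFA-1 chain, was at 240 CPM (198 to 290) in NK-like and 136 CPM (121 to 152) in T-like cells, and Itgax was at 54.6 and 0.913 CPM. Fibroblast markers stood at a median of 12.9% in the class as a whole, in which Lama2 (60.0 CPM) was at 11.7% and Lamc1 (106 CPM) at 29.3% of the fibroblast-like level.

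B and plasma-like cells (309 cells) had the highest class level of the laminin beta chain Lamb3, at 99.6 CPM (86.6 to 114) and from 68.7 to 169 CPM over 8 numbers. Epithelial markers stood there at a median of 0.217% of the epithelial-like level, and Lama3, the alpha chain that Lamb3 joins, had 0 UMIs. T and NK-like cells had Lamb3 at 58.1 CPM with Lama3 again at 0 UMIs, and 122 CPM in the NK-like part. Mast-like cells (252 cells, median 1228 UMIs) were the highest class for Itga2 at 143 CPM (109 to 185; 105 to 200 CPM over 8 numbers) and for Itga2b at 33.5 CPM, the latter from 14 UMIs (18.3 to 56.1). With so few UMIs, the mast-like Itga2b level cannot be set apart from the 28.5 CPM of fibroblast cluster 2. Fibroblast markers stood at a median of 16% in mast-like cells, and Itga2 was at 399% of its fibroblast-like level.

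**Figure D5:**
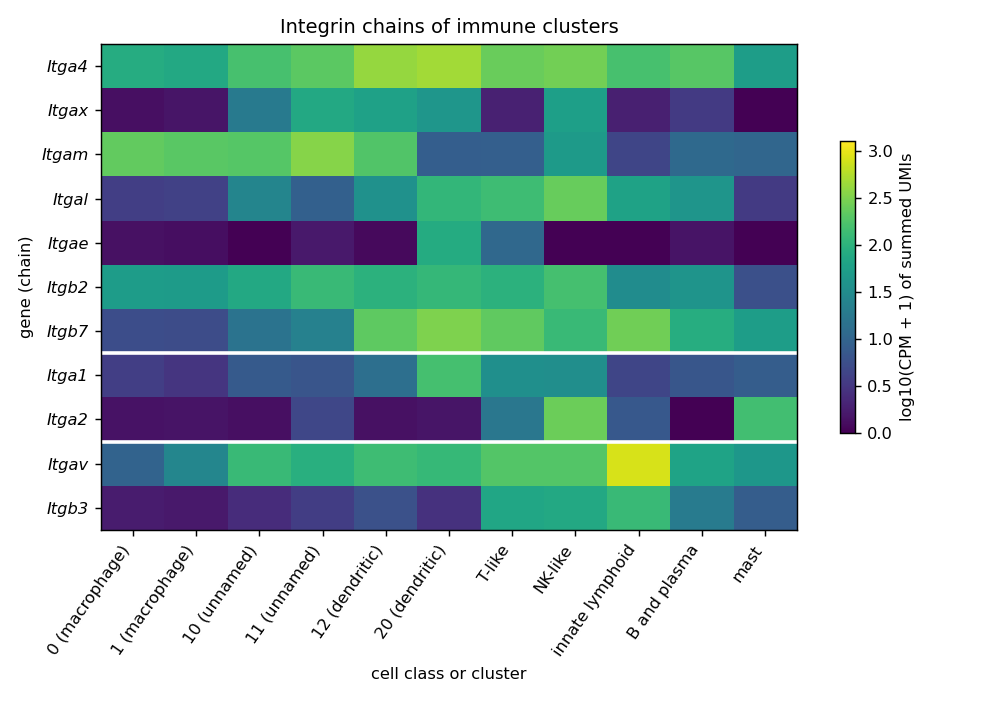
Level of the 7 leukocyte integrin chains and of Itga1, Itga2, Itgav and Itgb3 (rows) in immune clusters and classes (columns), as log10(CPM + 1) of summed UMIs, on a scale from 0 to 3.1; numbers name clusters, and the T-like and NK-like columns are parts of 1 cluster. Itgam is bright in columns 0 to 12 at the left and dark in cluster 20, where Itgae and Itga1 are bright, and Itgav is brightest in innate lymphoid cells.

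Some chains that pair as proteins had like patterns over the 15 classes, given here as correlations of log2(CPM + 1), which share libraries and differ in depth between classes and carry no test. Pearson's r was 0.91 for Itga1 with Itgb1, 0.89 for Itgal with Itgb2 and 0.86 for Itga6 with Itgb4, which pair. It was 0.82 for Itga4 with Itgb7, which pair, and -0.38 for Itga4 with Itgb1, which also pair. Other chains that pair differed as widely. Values were 0.75 for Itgam with Itgb2 and 0.70 for Itgav with Itgb3, but -0.22 for Itgav with Itgb5 and -0.021 for Itga2b with Itgb3. With Itgb1 they were 0.68 for Itga7, 0.62 for Itga8, 0.23 for Itga3, 0.12 for Itga6, 0.015 for Itga11, -0.027 for Itga2 and -0.24 for Itgav. Chains that do not pair reached 0.90, for Itga4 with Itgb2 and for Itgal with Itgb7, and 0.93, for Itgb6 with Lama1. Among laminins r was 0.82 for Lama4 with Lamc1 and 0.82 for Lama3 with Lama5.

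The median log2 ratio of CPM + 1 over the chains tested, all of which had to reach 10 CPM, was -0.52 for lymphatic over blood endothelial-like cells, against 0.0024 over all genes tested. It was 0.39 against -0.017 for muscle over pericyte-like cells, 0.54 against 0.24 for epithelial-like over mesothelial-like cells, and 2.75 against 0.0086 for fibroblast-like over macrophage-like cells. Over all 34 members, tested or not, the medians were -0.49, 0.32, 0.49 and 1.00 in the same order.

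Exons of 7 members overlap those of an opposite-strand gene of the matrix (Itga4, Itga7, Itga8, Itgav, Lama2, Lama3 and Lamc3). No member overlaps same-strand exons of a gene of the matrix, while Itga1, Itga10 and Itgam overlap those of annotated genes that the matrix does not list. Counting overlaps outside exons too, 11 members overlap a gene of the matrix. Those on the same strand are Itga1 with Pelo, Itga6 with Gm13663 and Gm13662, and Lamb3 with 4930570N18Rik. The sources used here do not say whether counting used strand or introns, so reads of these pairs may not be told apart.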

How the data were processed

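Single-cell RNA-seq of C57BL/6J mice gave 1 deposited matrix of whole UMI counts per gene and barcode. Per the submitters' processing notes, Cell Ranger 7.1.0 and Seurat 4.3.0.1 were used with mm10. Counting settings: not given in the sources used here. By their whole values, the authors deposited these counts unnormalized, with 12 sample tags in the same matrix. In each barcode number 1 tag held 84.4 to 89.0% of the tag UMIs. The labels' replicate numbers were not tied to barcodes, so no test across samples, no SD and no comparison of sexes was made; p-values are absent.

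Cells needed at least 500 UMIs, 300 genes and under 15% mitochondrial UMIs (380 barcodes removed). Doublets were called with Scrublet in scanpy within each set of barcode numbers (3.41% removed). With scanpy 1.11.5 and leidenalg 0.10.2, cells were scaled to 10000 UMIs and clustered on 30 principal components of 2000 variable genes, 15 neighbours and a Leiden resolution of 1. Members and listed genes were left out of the variable genes. A cluster was named from at least 3 markers of its class. A gene was tested in a comparison at 10 CPM or more in either side and called at a 2-fold ratio with 10 CPM on the higher side. A count of 0 was set to 3 counts. Ratios have exact conditional binomial and levels exact Poisson 95% intervals, covering counting error only. On simulated counts the call rule and intervals were checked. The members and all lists were chosen with earlier results of these data known. All members are named; of listed genes, counts and the 2 largest ratios in each direction. Some listed and marker genes are not reported here. Gene positions are from GENCODE vM21 on GRCm38, where all 34 identifiers were found, and promoters from RefSeq, with 22 of 34 members matched. Not matched were Itga6, Itga7, Itgal, Itgae, Itgb2, Itgb3, Itgb4, Lama1, Lama3, Lama4, Lamc1 and Lamc3. Alternatives were a stricter cell filter, doublets kept, a resolution of 2, marker gates, per-cell means, each set of barcode numbers, and levels of 5 and 20 CPM.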

Additional observations from a re-analysis of the deposited data

Results flagged for a closer look

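Each of the 34 chains was examined in its highest class for a barcode number far from the others, and 2 stood apart. Chance sets about 1 in 20 groups apart in this way. Itga6 in Schwann-like cells was at 540 CPM in barcode number 7, while the other 4 of the 5 numbers with at least 10 cells lay between 222 and 305 CPM. Itgb1 in smooth muscle-like cells was at 1031 CPM in barcode number 3, while the other 7 of 8 numbers lay between 881 and 939 CPM.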

How the results depend on the processing

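The count of 34 chains at 10 CPM in some class, and the counts past 2-fold for lymphatic against blood endothelium, epithelium against mesothelium and fibroblasts against macrophages, stayed within 1.5 times under every alternative that gave a value. The counts for smooth muscle against pericytes did not: 5 chains were higher in muscle with marker gates and 1 at 20 CPM, in place of 3, and 7 were higher in pericytes at 5 CPM, in place of 4; the change of level moves which genes are tested, and the cause of the change with gates was not tested. With gates, Itga1, Itga8 and Itga10 joined and Itga4 left the muscle side, and on the pericyte side Lama2 left and Lamc3 joined. No pericyte class formed at the finer clustering or with doublets kept, and numbers 5 to 8 held no epithelial-like cells, so these settings gave no value. The adipocyte-like class gave none with the stricter filter, with gates or in numbers 1 to 4. The Schwann-like class gave none in numbers 1 to 4. The highest class of a chain held for 32 of 33 with the stricter filter, 31 of 33 with doublets kept, 33 of 33 at the finer clustering, 27 of 33 with gates, 31 of 34 with per-cell means, 28 of 29 in numbers 1 to 4 and 27 of 30 in numbers 5 to 8. Among these levels 3 moved by over 1.5 times: with per-cell means Lama1 in epithelial-like cells was at 21.4 CPM and Lamb1 in adipocyte-like cells at 118 CPM, and Itgae in dendritic-like cells was at 17.2 CPM in numbers 5 to 8. The highest class changed for Itga10 with the stricter filter, per-cell means and numbers 1 to 4, for Itgb2 and Itgb7 with doublets kept and in numbers 5 to 8, for Lamb1 with per-cell means and in numbers 5 to 8, and for Itga6 with per-cell means. With gates it changed for Itga5, Itga7, Itgb2, Itgb5, Itgb7 and Lama5. Pericyte-like cells were the second class for Itga1, Itga7, Itga8, Itga10, Itgb1 and Lamb2. At the finer clustering and with doublets kept there was no pericyte class, so these muscle ranks were not set against it there. No paired analysis was possible because no label ties barcodes to the labelled libraries or mice; the orders within barcode numbers are given as descriptions. Depth limits the small classes most: mast-like Itga2b rests on 14 UMIs, and Schwann-like cells had 5 barcode numbers with at least 10 cells.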

Other observations

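In fibroblast-like cells several chains differed between the sets of barcode numbers 1 to 4 and 5 to 8, which no label ties to mice or sexes. Itgb7 was at 4.65, 5.06, 5.98 and 6.44 CPM in numbers 1 to 4, and at 17.8, 16.9, 18.4 and 21.5 CPM in numbers 5 to 8. Itga2 went the other way, at 57.6, 33.4, 53.7 and 61.4 CPM and then at 22.8, 24.1, 16.7 and 27.1 CPM. Itga11 was at 91.9, 101, 111 and 113 CPM and then at 52.5, 73.3, 40.1 and 74.8 CPM. Lamb1 was at 166, 129, 162 and 141 CPM and then at 71.5, 85.4, 88.4 and 98.2 CPM. The gamma chain Lamc1 was at 300.1, 274, 291 and 279 CPM and then at 407, 423, 449 and 432 CPM, and Lamb2 at 133, 116, 134 and 119 CPM and then at 219, 207, 184 and 181 CPM. For each of these 6 chains the values of the sets do not overlap. How many of all genes separate in the same way was not counted, so the difference cannot be called particular to these chains. The fibroblast clusters also differ between the sets: cluster 3, with Itgb7 at 49.0 CPM and Lamc1 at 587 CPM, lies almost wholly in numbers 5 to 8, and cluster 6, with Itga2 at 107 CPM and Itga11 at 148 CPM, mostly in numbers 1 to 4.

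Cluster 33 (46 cells, led by Apod, Spp1 and Matn2), which was not named, had the highest Lama2 of 34 clusters at 1164 CPM (1031 to 1309), and 1 barcode number held at least 10 of its cells.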
